A study of Mus musculus with 24 samples.

Results

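The T cell marker genes are 10 mouse genes whose RNA is used as a marker of T lymphocytes in a tissue, though other cells can make some of it. They were taken as the rows of the deposited gene count table whose Ensembl identifier maps to Cd3e, Cd3d, Cd3g, Cd8a, Cd8b1, Cd4, Lck, Cd2, Cd5 or Tcf7, and all 10 were found among 53465 gene rows. They were followed over 12 tumours given 4 treatments, each tumour with an input library of total RNA and a J2 library of RNA bound by J2, an antibody that recognises double-stranded RNA. Every tumour was a transplant of 2153L, a p53-null (Trp53 knockout) mouse model of triple-negative breast cancer, placed as a fragment in the cleared mammary fat pad of a female BALB/c mouse aged 6 to 8 weeks at transplant. All groups therefore share the p53 loss and the same tumour line, and the labels name no second line. Treatment began at about 100 mm3. The combination group received ORIN1001, an inhibitor of the IRE1α ribonuclease, by mouth each day at 150 mg/kg together with docetaxel, a taxane, in the peritoneum each week at 10 mg/kg. The docetaxel group and the ORIN1001 group received 1 drug at the same dose plus vehicle, and the vehicle group received no drug. Each group held 3 tumours, labelled as biological replicates of bulk tumour cells. The comparisons ask how the RNA of these 10 genes in the tumour differed between the treatments, and how much of that RNA was bound by J2.

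T cells read antigen through a receptor whose signal is carried by the CD3 chains, encoded by Cd3e, Cd3d and Cd3g. The coreceptors CD8 (Cd8a and Cd8b1) and CD4 (Cd4) bind MHC class I and class II molecules and bring the kinase LCK (Lck) to the receptor, which it phosphorylates. CD2 (Cd2) is an adhesion receptor, CD5 (Cd5) restrains receptor signalling, and TCF1 (Tcf7) is a transcription factor of naive, memory and stem-like T cells. None of these genes is perfectly private to T cells: in the mouse Cd8a is also made by type 1 dendritic cells, Cd4 by some dendritic cells, Lck and Cd2 by natural killer cells, and Tcf7 by innate lymphoid cells. Which cells made each RNA in these tumours, tumour cells included, was not tested. The CD3 chains and Cd8b1 are the most restricted of the list.

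Upstream sequence is shown for Cd3e and Cd3d, whose input levels moved together across the tumours, and for both annotated starts of Lck, whose fitted difference between combination and vehicle inputs was smaller. Each line gives the 250 bases before the start, 5′ to 3′ on the gene's strand, from RefSeq's GRCm38.p6 annotation (the assembly also called mm10). Capitals mark the letters of 4 motifs named for factors of T cell development and searched on both strands. The RUNX motif was spelled TGTGGT. The ETS motif was spelled GGAAGT. The GATA motif was spelled AGATAA, and the TCF motif CTTTGAA. The E-box, spelled CANNTG, was searched as well and is not capitalised.
Cd3e, chr9:45009612-45009861, minus strand: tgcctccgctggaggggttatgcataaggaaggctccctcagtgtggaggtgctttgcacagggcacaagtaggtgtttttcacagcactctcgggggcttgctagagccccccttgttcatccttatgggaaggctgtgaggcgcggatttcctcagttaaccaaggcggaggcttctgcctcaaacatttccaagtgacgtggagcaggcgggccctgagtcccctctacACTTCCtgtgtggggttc
Cd3d, chr9:44981536-44981785, plus strand: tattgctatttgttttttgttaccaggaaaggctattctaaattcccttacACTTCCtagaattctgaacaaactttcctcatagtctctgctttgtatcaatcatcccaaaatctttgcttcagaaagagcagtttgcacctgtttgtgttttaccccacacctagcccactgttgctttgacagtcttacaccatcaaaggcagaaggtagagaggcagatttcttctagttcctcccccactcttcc
Lck upstream start, chr4:129573642-129573891, minus strand: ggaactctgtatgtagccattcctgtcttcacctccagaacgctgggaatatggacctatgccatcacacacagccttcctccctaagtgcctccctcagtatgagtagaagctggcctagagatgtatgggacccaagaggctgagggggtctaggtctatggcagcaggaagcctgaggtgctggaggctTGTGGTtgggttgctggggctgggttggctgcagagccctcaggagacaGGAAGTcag
Lck downstream start, chr4:129558373-129558622, minus strand: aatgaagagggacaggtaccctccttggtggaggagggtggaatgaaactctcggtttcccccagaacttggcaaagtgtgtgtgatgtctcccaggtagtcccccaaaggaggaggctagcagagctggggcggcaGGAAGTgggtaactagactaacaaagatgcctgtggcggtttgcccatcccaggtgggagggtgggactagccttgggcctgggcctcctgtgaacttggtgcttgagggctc

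The ETS letters stood 18 bases before the start of Cd3e and 199 bases before that of Cd3d, in both cases on the reverse strand. These starts lie 52 and 17 bases inside the outer annotated ends of Cd3e and Cd3d, so that the windows include the first bases of those genes. The upstream start of Lck had the RUNX letters at 58 bases and the ETS letters at 9 bases before it, and the downstream start had the ETS letters at 113 bases before it. A window was on hand for 7 of the 10 genes (9 windows in all), and none for Cd2, Cd4 or Cd8b1. In the remaining windows the ETS letters were in those of Cd5 and of 1 start of Tcf7, and the GATA letters in that of Cd3g. The Cd8a window held none of the 4 motifs. Over 32851 windows of 250 bases before annotated mouse starts, 19.7% held the ETS letters, 14.0% the RUNX letters, 9.99% the GATA letters, 4.46% the TCF letters and 66.2% an E-box. These matches describe letters only. Cd3e, Cd3d and Cd3g lie side by side on chromosome 9, with 1338 bases between Cd3g and Cd3d, and Cd8b1 and Cd8a both lie on chromosome 6.

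Depth sets how firmly these genes can be read, since most of them gave few counts per library. The inputs held 11.9 to 63.3 M gene counts, apart from the input of docetaxel tumour 3. That library held 3.27 M, and 67.1% of them fell on ribosomal RNA genes, where the other 11 inputs had 0.431% to 2.86%. It gave 0 to 2 counts for each of 9 of the marker genes and 21 for Tcf7, and 3 counts in it amount to 3.48 CPM, so levels such as those of the other docetaxel tumours were not detectable in it for most of these genes. CPM here means counts on the per-million scale of a library's TMM-adjusted total, on 1 scale for all 24 libraries. Counts of called genes in the inputs that differed without docetaxel tumour 3 are given both ways. In J2 libraries, ribosomal RNA loci took 22.7% to 56.6% of the combination counts, which totalled 2.54 to 11.04 M, against 1.25% to 13.8% in the J2 libraries of the other 3 treatments. RNA of a bulk tumour cannot tell fewer T cells from less RNA per T cell.

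Each CD3 chain was higher in every combination tumour than in any ORIN1001 or vehicle tumour. Cd3e, the ε chain, stood at 5.06, 4.53 and 8.42 CPM in the combination inputs (92, 72 and 181 counts). It stood at 0.963 and 1.31 CPM in docetaxel tumours 1 and 2 with no count in tumour 3, at 0.755, 2.67 and 0.565 CPM in the ORIN1001 inputs, and at 1.64, 1.65 and 1.57 CPM in the vehicle inputs. The lowest combination tumour was above every other tumour, and the 3 vehicle tumours were nearly equal, while ORIN1001 tumour 2 was the highest outside the combination. Group means were 6.01 ± 2.11 CPM for the combination, 1.14 ± 0.246 for docetaxel (n = 2, without tumour 3), 1.33 ± 1.17 for ORIN1001 and 1.62 ± 0.0416 for vehicle (SD, n = 3 unless given). Cd3d, the δ chain, had 18 to 32 counts (1.13 to 1.49 CPM) in combination inputs, 0.268 and 0.308 CPM in docetaxel tumours 1 and 2, 0.0368 to 0.782 CPM in ORIN1001 inputs and 0.287 to 0.434 CPM in vehicle inputs. Cd3g, the γ chain, ran from 0.881 to 1.65 CPM in combination inputs, stood at 0.803 and 0.535 CPM in docetaxel tumours 1 and 2 with 1 count in tumour 3, and ran from 0.184 to 0.815 CPM in ORIN1001 inputs and from 0.190 to 0.750 CPM in vehicle inputs.

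The CD8 and CD4 coreceptors followed the same order at the top. Cd8a stood at 3.85, 3.96 and 6.93 CPM in combination inputs (70, 63 and 149 counts), at 0.803 and 1.12 CPM in docetaxel tumours 1 and 2 with no count in tumour 3, at 0.589, 1.56 and 0.467 CPM in ORIN1001 inputs, and at 1.66, 1.07 and 1.84 CPM in vehicle inputs. Again the groups did not overlap between the combination and any other treatment. Cd8b1, the β chain of CD8, ranged from 0.818 to 1.91 CPM in combination inputs and from 0.675 to 0.718 CPM in vehicle inputs, with 0.428 and 0.683 CPM in docetaxel tumours 1 and 2 (2 counts in tumour 3) and 0.147 to 0.652 CPM in ORIN1001 inputs. Cd4 stood at 4.40, 2.89 and 4.70 CPM in combination inputs, 1.28 and 1.38 CPM in docetaxel tumours 1 and 2 (2 counts in tumour 3), 0.626, 1.37 and 0.246 CPM in ORIN1001 inputs and 2.41, 1.62 and 0.840 CPM in vehicle inputs. The lowest ORIN1001 tumour had 10 counts of Cd4 and the lowest combination tumour 46.

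The remaining 4 genes did not behave alike. Cd5 stood at 0.881, 0.755 and 1.40 CPM in combination inputs, at 0.161 and 0.388 CPM in docetaxel tumours 1 and 2 with no count in tumour 3, at 0.203, 0.619 and 0.221 CPM in ORIN1001 inputs and at 0.804, 0.375 and 0.596 CPM in vehicle inputs, so that combination and vehicle tumours overlapped. Cd2 overlapped too, at 0.566 to 0.977 CPM in combination inputs and 0.275 to 0.718 CPM in vehicle inputs. Lck was more even: 9.74, 8.74 and 11.1 CPM in combination inputs, 5.99 and 8.42 CPM in docetaxel tumours 1 and 2, 7.61, 9.32 and 10.4 CPM in ORIN1001 inputs, and 6.83, 10.4 and 7.78 CPM in vehicle inputs. Tcf7 lay below every vehicle tumour in all 3 combination tumours. It stood at 42.0, 17.9 and 34.7 CPM in combination inputs, 19.4, 44.0 and 24.4 CPM in docetaxel inputs, 43.7, 43.9 and 37.5 CPM in ORIN1001 inputs, and 50.2, 55.5 and 42.6 CPM in vehicle inputs. The highest combination tumour and the lowest vehicle tumour were 42.0 and 42.6 CPM, so these groups were separated by a narrow gap.

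**Figure D1:**
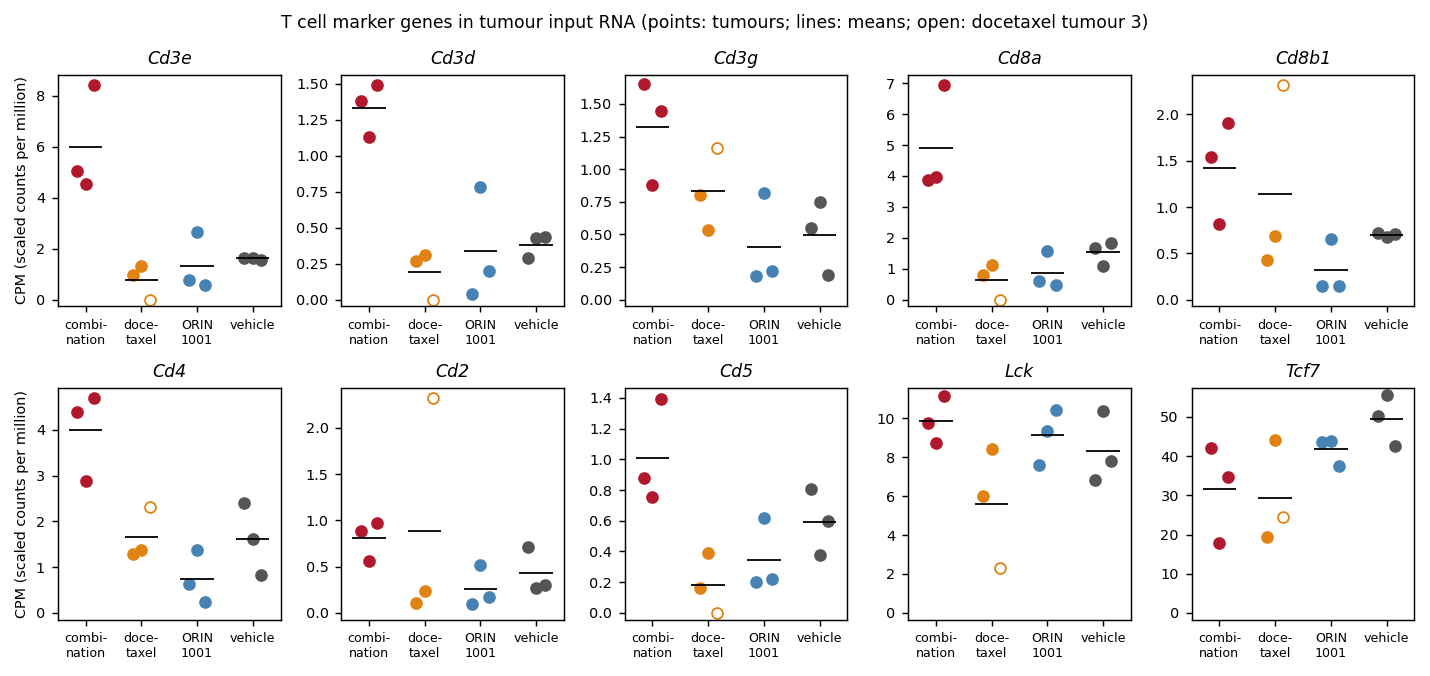
CPM of each T cell marker gene (vertical axes, linear and drawn separately for each gene) in every input library, with the combination, docetaxel, ORIN1001 and vehicle tumours from left to right. Points are tumours, horizontal lines are means of 3, and open points are docetaxel tumour 3. The 3 combination tumours hold the highest Cd3e values (4.53 to 8.42 CPM), whereas Lck overlaps between combination, ORIN1001 and vehicle tumours, and Tcf7 has its highest value (55.5 CPM) in a vehicle tumour.

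Against vehicle, no marker gene passed an adjusted p of 0.05 in the combination inputs, by edgeR's quasi-likelihood test on all 12 inputs with Benjamini-Hochberg adjustment over 17768 genes. Over all genes tested 4.77% passed. The fitted log2 fold change was 1.94 ± 0.54 for Cd3e (SE, adjusted p = 0.0603), 1.84 ± 0.69 for Cd3d, 1.73 ± 0.50 for Cd8a (adjusted p = 0.0636), 1.47 ± 0.61 for Cd3g and 1.35 ± 0.54 for Cd4. It was 1.08 ± 0.59 for Cd8b1, 0.96 ± 0.73 for Cd2, 0.82 ± 0.53 for Cd5, 0.29 ± 0.30 for Lck and −0.60 ± 0.33 for Tcf7. The sign was positive for 9 of 10 genes, with a median of 1.21 against −0.03 over all genes tested. Of the 10, 5 had an unadjusted p under 0.05 (Cd3d, Cd3e, Cd3g, Cd4 and Cd8a). DESeq2 called 2 (Cd3e and Cd8a) and limma-voom with sample weights called 7. The shares of all genes that these 2 tools called, or that had an unadjusted p under 0.05, are not given here. Such counts are descriptions only, here and in every later comparison.

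Without docetaxel tumour 3 the median of the 10 was 1.23 and the calls changed. Cd3e (1.96 ± 0.50, adjusted p = 0.0214) and Cd8a (1.75 ± 0.45, adjusted p = 0.0212) then passed, as did 14.6% of all genes in the upward direction, by the same edgeR test on 11 inputs. The combination and vehicle inputs did not overlap for 7 genes. Of these, 6 were higher in the combination (Cd3d, Cd3e, Cd3g, Cd4, Cd8a and Cd8b1), where 22.0% of all genes tested were higher without overlap. Tcf7 was the 1 that was lower, where 25.5% of all genes were lower without overlap.

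Against docetaxel alone, Cd3e and Cd8a rose in the combination. Their log2 fold changes were 2.58 ± 0.61 (adjusted p = 0.0329) and 2.52 ± 0.56 (adjusted p = 0.0283) in the edgeR fit on 12 inputs. That is 2 of 10 genes, where 5.46% of all genes rose. Leaving out docetaxel tumour 3 gave 2.47 ± 0.57 (adjusted p = 0.0181) and 2.42 ± 0.51 (adjusted p = 0.0142), beside 12.5% of all genes. The fits for the other 8 were all positive, between 0.15 for Tcf7 and 2.32 for Cd3d, and Cd5 had 1.90 ± 0.62 (adjusted p = 0.0817). The median over the 10 was 1.65 against −0.02 over all genes. With docetaxel tumours 1 and 2 only, the combination was higher without overlap for every marker gene except Tcf7, 9 in all, as it was for 26.6% of all genes tested. With tumour 3 included it was so for 6, beside 16.7% of all genes. Both calls were lost when combination tumour 2 or 3, or docetaxel tumour 1 or 2, was left out, with adjusted p between 0.0724 and 0.105. That of Cd3e was also lost without vehicle tumour 1 (adjusted p = 0.0501).

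Against ORIN1001 alone, 4 marker genes rose in the combination: Cd8a by a log2 fold change of 2.58 ± 0.51 (adjusted p = 0.0196), Cd4 by 2.50 ± 0.55 (adjusted p = 0.0251), Cd8b1 by 2.30 ± 0.61 (adjusted p = 0.038) and Cd3e by 2.26 ± 0.54 (adjusted p = 0.0309), in the edgeR fit on 12 inputs. Over all genes, 7.20% rose. Without docetaxel tumour 3, 8 rose, namely all except Lck and Tcf7, beside 18.5% of all genes. Those 8 were also the genes whose combination tumours were all above the ORIN1001 tumours, as 25.4% of all genes tested were. Lck had 0.19 ± 0.30 and Tcf7 −0.34 ± 0.33. The median of the 10 was 1.97 against −0.02 over all genes. Without ORIN1001 tumour 1 the count of calls was 1 of 10, and without ORIN1001 tumour 3, combination tumour 2 or combination tumour 3 it was 0 of 10. The call of Cd8b1 was also lost without any 1 vehicle tumour or combination tumour 1 (adjusted p between 0.0522 and 0.0624). The comparisons with vehicle, docetaxel and ORIN1001 all use the same 3 combination tumours.

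**Figure D2:**
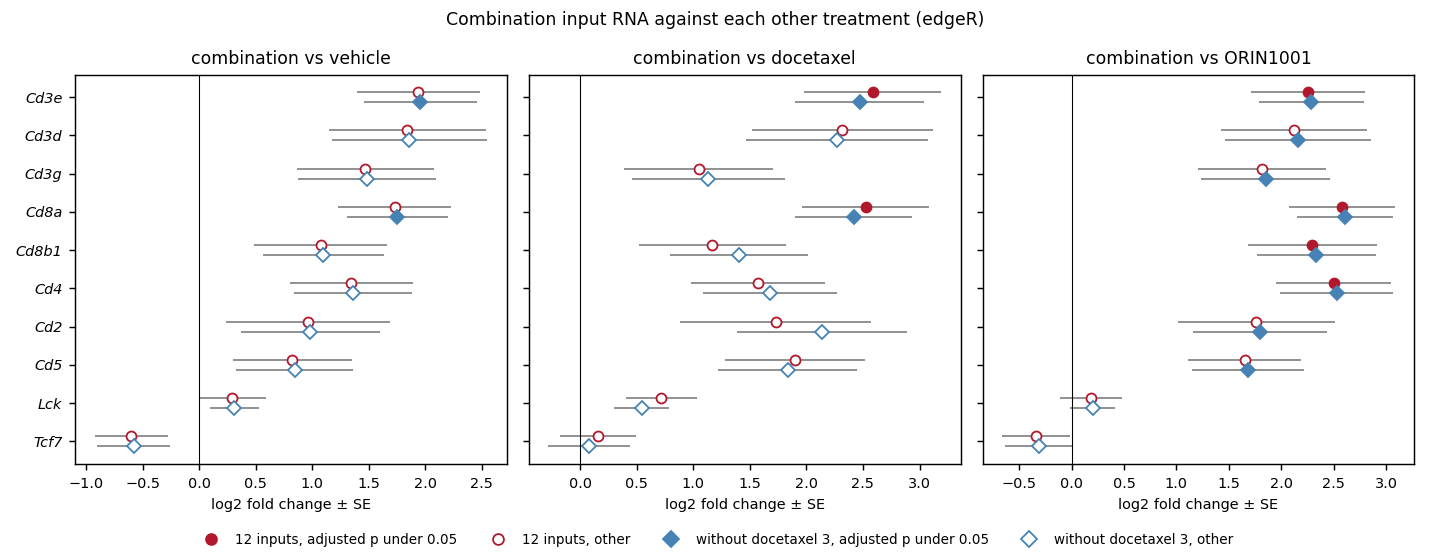
Log2 fold change (horizontal axes) of the combination inputs over vehicle, docetaxel and ORIN1001 inputs for each marker gene, with bars of 1 SE. Circles are the fit on 12 inputs, diamonds that without docetaxel tumour 3, and filled symbols have an adjusted p under 0.05. Cd3e and Cd8a lie at 1.94 and 1.73 over vehicle, and Lck and Tcf7 lie nearest to 0 or below it.

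Neither drug alone moved a marker gene past the test. For docetaxel against vehicle, 9 of 10 fits were negative, between −1.07 ± 0.62 for Cd5 and 0.42 for Cd3g, with −0.79 ± 0.56 for Cd8a, −0.64 ± 0.61 for Cd3e and −0.75 ± 0.34 for Tcf7. By edgeR 0 of 10 passed, 1 (Tcf7) had an unadjusted p under 0.05, DESeq2 and limma-voom called 0, and 0% of all genes passed. With all docetaxel inputs Cd3e and Tcf7 were lower than vehicle without overlap, as 10.5% of all genes tested were, and with docetaxel tumours 1 and 2 only, Cd2 as well, 3 in all beside 17.9%. For ORIN1001 against vehicle, 9 of 10 fits were negative, down to −1.22 ± 0.61 for Cd8b1, −1.15 ± 0.55 for Cd4 and −0.85 ± 0.51 for Cd8a. By edgeR 0 of 10 passed, 0 had an unadjusted p under 0.05, DESeq2 and limma-voom called 0, and 0% of all genes passed. Cd8b1 was lower than vehicle without overlap, as 6.38% of all genes were. Between docetaxel and ORIN1001 0 of 10 passed by edgeR, 0 had an unadjusted p under 0.05 and the other tools called 0, while 0% of all genes passed. On the 11 inputs without docetaxel tumour 3, each of these 3 comparisons again had 0 of 10 past the edgeR test and 0 with an unadjusted p under 0.05. Over all genes 0% then passed for either drug against vehicle, and 0.476% between docetaxel and ORIN1001. The order of Cd3e means below the combination, in which vehicle came next, then ORIN1001 and docetaxel, thus rests on neighbours that no test separated.

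The interaction asks whether the combination went beyond what docetaxel and ORIN1001 added up to on the log2 scale. It was positive for 10 of 10 genes, with a median of 2.56 against −0.00019 over all genes. Cd8a had the largest value, 3.37 ± 0.76 on the log2 scale (adjusted p = 0.0942), followed by 2.90 ± 0.82 for Cd3e (adjusted p = 0.115). By edgeR on 12 inputs 0 of 10 passed, beside 0% of all genes, and 6 had an unadjusted p under 0.05. DESeq2 called 3 and limma-voom called 6. Without docetaxel tumour 3, Cd8a passed with 3.27 ± 0.69 (adjusted p = 0.0369), beside 5.04% of all genes in the upward direction. A test for any difference among the 4 treatments called Cd8a (adjusted p = 0.0263) and Cd3e (adjusted p = 0.0326) by edgeR, beside 8.63% of all genes. On the 11 inputs without docetaxel tumour 3 it called 4 (Cd4 and Cd8b1 also), beside 30.8%. Without ORIN1001 tumour 3, combination tumour 2 or combination tumour 3 it called 0, and without any 1 vehicle tumour, docetaxel tumour 1 or combination tumour 1 it called 1.

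The low members could pass the filter on low counts mainly through the group where they were high. All 10 passed it. Cd2 and Cd3d reached its level of 0.373 CPM in 6 of 12 inputs, 3 of them from the combination, and Cd3g and Cd5 reached it in 8. Lck and Tcf7 reached it in all 12. In the fit that included J2 libraries the level was 0.627 CPM. Cd2 reached that level in 6 and Cd3d in 7 of 24 libraries, with all 3 combination inputs among them. Outside the combination, Cd2 reached it in 1 vehicle and 1 ORIN1001 input, and Cd3d in 1 ORIN1001 input and 1 docetaxel J2 library.

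Ratios of counts inside a library do not depend on the scaling between libraries. For each count of Lck there were 0.520, 0.518 and 0.757 counts of Cd3e in combination inputs, against 0.161 and 0.156 in docetaxel tumours 1 and 2, 0.0993, 0.287 and 0.0542 in ORIN1001 inputs and 0.239, 0.159 and 0.202 in vehicle inputs. For each count of Tcf7 there were 0.121, 0.253 and 0.243 counts of Cd3e in combination inputs, and 0.0326, 0.0297 and 0.0369 in vehicle inputs. Both ratios separated the combination tumours from all others, as the Cd3e levels alone already did. How often other pairs of genes do so was not counted, so this is a description only. The ratio of Cd8a to Cd4 counts did not: it was 0.875, 1.37 and 1.48 in combination inputs, 0.625 and 0.816 in docetaxel tumours 1 and 2, 0.941, 1.14 and 1.90 in ORIN1001 inputs and 0.690, 0.662 and 2.19 in vehicle inputs. As a share of Cd8a and Cd4 counts together, Cd8a made up 59.6% in combination tumour 3 (exact 95% interval 53.2% to 65.7%) and 68.7% in vehicle tumour 3 (58.6% to 77.6%), intervals that cover counting error only. The ratio of Cd8a to Cd3e counts was 0.820 ± 0.0571 in combination and 0.947 ± 0.267 in vehicle inputs (SD, n = 3 each).

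**Figure D3:**
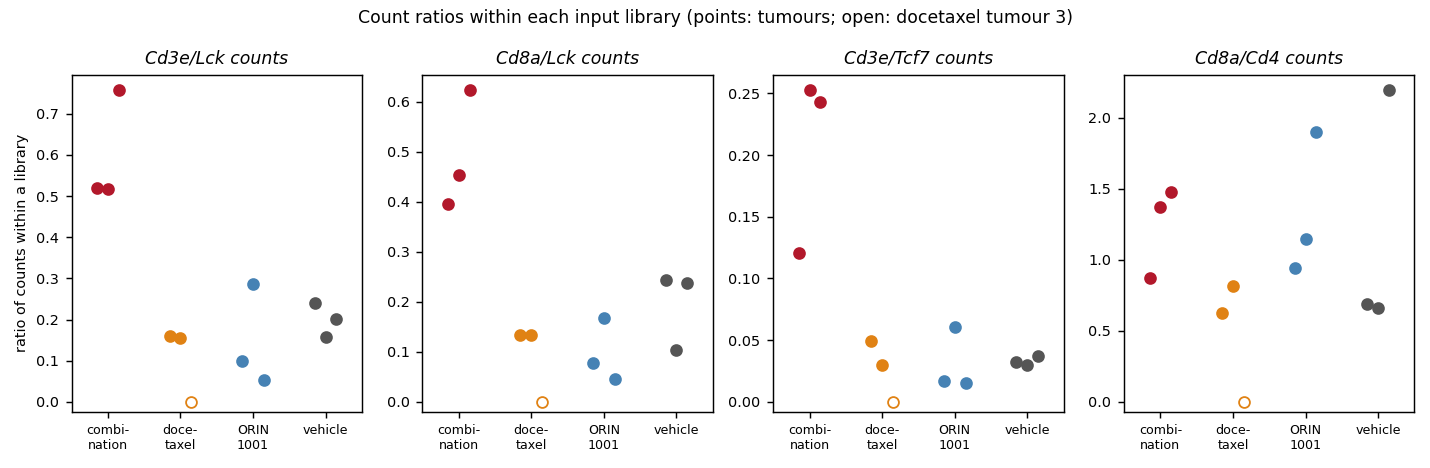
Ratio of counts of 2 genes within each input library (vertical axes, linear), with the combination, docetaxel, ORIN1001 and vehicle tumours from left to right. Points are tumours and open points are docetaxel tumour 3. Cd3e over Lck lies at 0.518 or above in combination tumours and at 0.287 or below in all others, while Cd8a over Cd4 overlaps.

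Across the 11 inputs without docetaxel tumour 3, Cd3e, Cd3d, Cd3g, Cd8a, Cd8b1, Cd4, Cd2 and Cd5 each followed the mean of the other 9 marker genes, with Pearson r between 0.749 for Cd3g and 0.951 for Cd3e and Spearman rho between 0.764 and 0.973. Lck had r = 0.51 (rho = 0.38), and Tcf7 r = −0.0019 (rho = −0.064). With docetaxel tumour 3 included r was lower for each of the first 8 genes, at 0.323 for Cd2, 0.482 for Cd8b1, 0.519 for Cd3g and 0.692 to 0.863 for the other 5, while Lck had 0.466 and Tcf7 0.0947. The points are libraries that share their scaling and, in part, their treatment, so these are descriptions. The 3 highest of the 11 inputs were the 3 combination tumours for 6 genes (Cd3d, Cd3e, Cd3g, Cd4, Cd8a and Cd8b1), included 2 of them for Cd2 and Cd5, 1 for Lck and 0 for Tcf7. How often this order occurs over all genes was not counted, so these counts are a description only. The genes most like the mean pattern of the 10 over 12 inputs, among 12428 ranked, were H2-DMb1 (r = 0.96), Cd74 (0.93), Ms4a4c (0.92), H2-Aa (0.92), Rasgrp1 (0.92), Gpr155 (0.91), Itgb2 (0.90) and H2-Ab1 (0.90). Over 11 inputs they included Trbc2 (r = 0.96), Cd6 (0.95), Itgal, Fam49a, Siglece, H2-DMb1 and Ms4a4b (0.94 for the last), and H2-DMb1 is the 1 gene in both lists.

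The Tcf7 row has further limits. Over the 11 inputs Tcf7 did not follow the mean of the other 9 marker genes (r = −0.0019). Whether its RNA came from T cells or from other cells, tumour cells included, was not tested. The ends of the Tcf7 gene overlap those of Skp1a on the opposite strand over 332 bases (chr11:52246527-52246858, GRCm38.p6), and the strand setting of the counting is not given. Skp1a averaged 93.1 ± 12.7 CPM in combination inputs and 131 ± 7.63 CPM in vehicle inputs (SD, n = 3 each). Its part in the Tcf7 values was not tested. The span of Lck holds the microRNA gene Mir8119.

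Other T cell genes were read as companion lists, by edgeR on the 12 inputs for the combination over vehicle, where 2.80% of all genes rose and 1.98% fell. Of 5 T cell receptor chains tested, 0 were called, 1 had an unadjusted p under 0.05, DESeq2 called 1 and limma-voom called 2. Their median log2 fold change was 1.00 against −0.03 over all genes, with 1.77 ± 0.48 for Cd247, the ζ chain (adjusted p = 0.0552), 1.18 for Trbc1, 1.00 for Trbc2 and 0.90 for Trac, the constant regions of the β and α chains. Cd247 was called without docetaxel tumour 3. Of the receptor signalling genes, 2 of 18 tested rose, and the median was 1.36. They included Cd28, a costimulatory receptor, with 2.06 ± 0.46 (adjusted p = 0.0413). Ptprc (CD45, common to white blood cells) had 1.37 ± 0.37 and Rasgrp1 1.30 ± 0.35, neither past the test. Without docetaxel tumour 3, 10 of 19 of these genes rose, beside 14.6% of all genes.

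Genes of naive and memory T cells had a median of 0.17. Of these 0 of 11 were called by edgeR, 0 had an unadjusted p under 0.05, and DESeq2 and limma-voom called 0. The smallest p-values were those of Ccr7 (1.50 ± 0.81), Satb1 (1.07 ± 0.59), Il7r (0.68 ± 0.48) and Bcl2 (0.36 ± 0.25). Of the T cell lineage factors, 4 of 13 rose and 1 fell. Il2ra, the high-affinity IL-2 receptor chain, rose by 2.49 ± 0.51 (adjusted p = 0.0365), and Tbx21, the T-bet factor of type 1 responses, by 2.03 ± 0.43 (adjusted p = 0.0365). Ikzf2 rose by 1.00 ± 0.24 and Runx3, a factor of CD8 T cells, by 0.98 ± 0.24. On 11 inputs, without docetaxel tumour 3, 5 rose and 2 fell, beside 14.6% of all genes that rose and 13.4% that fell. Of the cytotoxic genes, 0 of 7 were called by edgeR, 2 had an unadjusted p under 0.05, DESeq2 called 0 and limma-voom called 2. Their median was 0.65, with Nkg7 at 1.85 ± 0.62, Prf1 (perforin) at 1.22 ± 0.46, Gzma at 0.73 ± 0.69 and Gzmb at 0.65 ± 0.58. Nkg7 was called without docetaxel tumour 3.

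Markers of other cell types were read beside these results. Natural killer genes summed to 20.5 ± 2.87 CPM in combination inputs (17.3 to 22.9) and 6.80 ± 1.16 CPM in vehicle inputs (5.80 to 8.07). Of these 2 of 5 tested rose, Klrk1 (NKG2D, also on CD8 T cells) by 2.21 ± 0.53 and Cd244a by 1.56 ± 0.26, beside 2.80% of all genes. Without docetaxel tumour 3 it was 3 of 5, beside 14.6% of all genes. Ncr1, a defining natural killer marker, averaged 0.195 CPM in combination and 0.189 CPM in vehicle inputs, and Klra4 and Klra8 were at 0 in both. Type 1 dendritic cell genes summed to 307 to 321 CPM in combination and 209 to 245 CPM in vehicle inputs. Of these 1 of 8 rose, Clec9a, by 3.25 ± 0.75, beside 2.80% of all genes, and 5 of 8 without docetaxel tumour 3, beside 14.6%. Most of the sum was Cadm1 (143 ± 26.9 CPM in combination, 83.2 ± 10.6 CPM in vehicle inputs), Tlr3 and Irf8. Tlr3 averaged 73.0 ± 25.9 and 88.7 ± 17.3 CPM in the same order, the other way, and Irf8 57.5 ± 3.79 and 29.3 ± 9.74 CPM. Xcr1 averaged 0.972 ± 0.197 and 0.684 ± 0.553 CPM, and Batf3 5.96 ± 0.970 and 3.68 ± 0.852 CPM (SD, n = 3 each). Plasmacytoid dendritic cell genes summed to 177 to 216 CPM in combination and 138 to 200 CPM in vehicle inputs. Most of this sum was Tcf4 (131 ± 25.3 CPM in combination, 113 ± 5.49 CPM in vehicle inputs) and Bst2, which are not private to these cells. Siglech, a more restricted marker, averaged 2.02 ± 0.190 CPM in combination and 0.814 ± 0.564 CPM in vehicle inputs, Ccr9 1.40 ± 0.0855 and 0.665 ± 0.463 CPM, and Pacsin1 0.739 ± 0.0756 and 0.350 ± 0.269 CPM in the same order (SD, n = 3 each). Macrophage genes summed to 563 to 810 CPM in combination and 412 to 619 CPM in vehicle inputs. B cell genes summed to 2.15 to 3.35 CPM in combination and 1.38 to 1.95 CPM in vehicle inputs, with Cr2 at 0 in both. Plasma cell genes summed to 158 to 204 CPM in combination and 187 to 261 CPM in vehicle inputs. Most of it was Sdc1, which epithelial cells also make (150 ± 21.5 CPM in combination, 186 ± 38.2 CPM in vehicle inputs), while Jchain averaged 1.22 ± 0.410 CPM in combination and 0.342 ± 0.0378 CPM in vehicle inputs. By edgeR 0 of 7 plasmacytoid dendritic cell, 0 of 9 macrophage, 0 of 3 B cell and 0 of 5 plasma cell genes tested were called. In each of these 4 lists 1 gene had an unadjusted p under 0.05. DESeq2 called 0, 1, 1 and 0 of them and limma-voom 1, 5, 1 and 0, in the same order. Without docetaxel tumour 3 edgeR called 1 macrophage gene (Adgre1) and 1 B cell gene (Cd22), both higher in the combination, beside 14.6% of all genes. The part of these cells in the marker results was not tested.

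Genes of lymph nodes summed to 3.52 to 6.94 CPM in combination and 3.73 to 4.25 CPM in vehicle inputs, and the node chemokine genes Ccl19 and Ccl21a were at 0 in both. Of the thymocyte genes, Rag2 was at 0 in the combination. The epithelial genes of the tumour cells summed to 1551 to 2183 CPM in combination and 2166 to 2665 CPM in vehicle inputs. By edgeR 0 of 3 node, 0 of 2 thymocyte and 0 of 9 epithelial genes tested were called, while 1, 0 and 2 had an unadjusted p under 0.05, DESeq2 called 0, 0 and 1, and limma-voom called 1, 0 and 1, in the same order. Among the epithelial genes Epcam had −0.91 ± 0.31 and Krt19 −7.59 ± 2.03, and both were called without docetaxel tumour 3, as was the node gene Madcam1. Over all genes 14.6% then rose and 13.4% fell. Krt19 averaged 0.403 ± 0.261 CPM in combination and 76.6 ± 129.9 CPM in vehicle inputs (SD, n = 3 each).

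**Figure D4:**
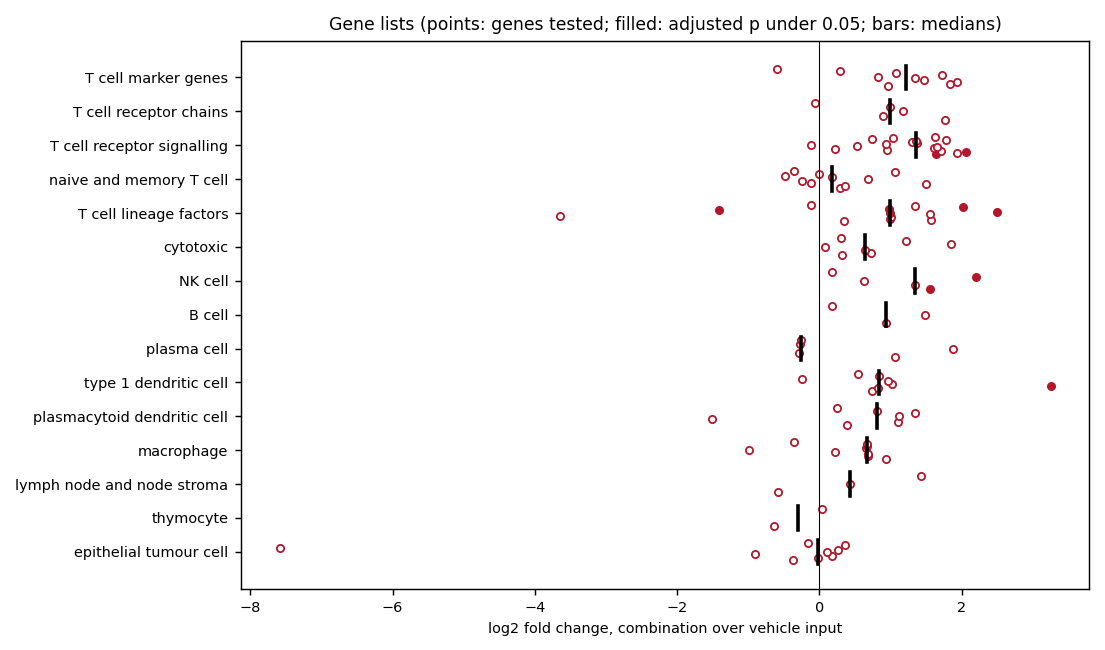
Log2 fold change (horizontal axis) of combination over vehicle inputs for each tested gene of the marker genes and of 14 companion lists (rows). Points are genes, filled where the adjusted p is under 0.05, and black bars are list medians. The T cell marker genes have a median of 1.21 and the T cell receptor signalling genes 1.36, while naive and memory T cell genes lie around 0.17.

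J2-bound RNA was compared with input RNA of the same tumour in 1 edgeR fit that took the tumour as a block over the 24 libraries. Averaged over treatments, all 10 marker genes had a negative log2 ratio of J2 to input, and 8 of them were lower in J2 past the test. Over all 17338 genes tested, 30.0% were lower, 25.0% were higher and 55.0% passed in either direction, and the median was −0.05 against −0.93 for the 10. Cd3g had the lowest value, −2.04 ± 0.39 (adjusted p = 0.000115), followed by Cd2 at −1.24 ± 0.49, Cd3d at −0.98 ± 0.34 and Tcf7 at −0.95 ± 0.11 (adjusted p = 7.9e-06). Cd3e had −0.93 ± 0.23, Cd8b1 −0.92 ± 0.37, Cd8a −0.79 ± 0.29 and Cd4 −0.71 ± 0.21. Cd5 had −0.84 ± 0.38 (adjusted p = 0.067) and Lck −0.31 ± 0.14 (adjusted p = 0.0673), and did not pass. Cd2 and Cd3d passed the filter on low counts mainly through combination libraries, where their levels were high, so their calls are descriptions only.

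Tcf7, with the most counts, shows this tumour by tumour. In J2 libraries it stood at 7.98, 9.21 and 14.8 CPM for the combination, 12.0, 33.1 and 14.6 CPM for docetaxel, 20.8, 22.9 and 28.0 CPM for ORIN1001 and 26.5, 29.9 and 22.3 CPM for vehicle, below the input of the same tumour in 12 of 12 tumours. Cd3e was lower in J2 in 11 of 12 tumours, the exception being docetaxel tumour 3, whose input had no count of it. Its J2 levels were 2.66, 3.07 and 2.30 CPM for the combination (5, 7 and 23 counts), 0.939, 1.07 and 2.06 CPM for docetaxel, 0.211, 0.743 and 0.284 CPM for ORIN1001 and 1.06, 0.482 and 1.04 CPM for vehicle. The 3 highest Cd3e values in J2 RNA were those of the combination tumours, but they rest on few counts. In the J2 libraries of combination tumours 1 and 2, 3 counts amount to 1.60 and 1.32 CPM. Combination tumour 3 (2.30 CPM) was close to docetaxel tumour 3 (2.06 CPM, 15 counts). No order between treatments was therefore read for Cd3e in J2 RNA. The same holds for Cd3d (2, 2 and 20 counts in the combination J2 libraries) and Cd3g (1, 4 and 11 counts).

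Within single treatments fewer genes passed, by the same edgeR fit. In the combination, Tcf7 (−1.47 ± 0.24) and Cd3e (−1.25 ± 0.45, adjusted p = 0.0385) were lower in J2, 2 of 10 beside 20.5% of all genes. The call of Cd3e was lost without any of the 3 vehicle tumours, ORIN1001 tumour 3, docetaxel tumour 1 or 2, or combination tumour 1 or 3, with adjusted p between 0.0513 and 0.4. In docetaxel tumours Cd3g (−2.34 ± 0.70) was lower, 1 of 10 beside 12.0% of all genes. Its call was lost without docetaxel tumour 1 or 2, and without combination tumour 1 or 2 the count was 2. In ORIN1001 tumours Cd3g (−2.34 ± 0.79), Cd3e (−1.59 ± 0.49) and Tcf7 (−0.81 ± 0.21) were lower, 3 of 10 beside 14.9%. The count was 0 without ORIN1001 tumour 1 or 2 and 1 without ORIN1001 tumour 3. In vehicle tumours Cd3g (−3.26 ± 0.99), Cd8b1 (−2.54 ± 0.87) and Tcf7 (−0.92 ± 0.21) were lower, 3 of 10 beside 21.1% of all genes. The call of Cd8b1 was lost without vehicle tumour 3 (adjusted p = 0.0788). There the count was 5 without docetaxel tumour 3, beside 24.4% of all genes, and 1 without vehicle tumour 2. Averaged over treatments it was 5 without vehicle tumour 2 and 4 without docetaxel tumour 2. Cd3e, Cd3g, Cd4 and Tcf7 passed on average over treatments whichever tumour was left out, whereas Cd2, Cd3d, Cd8a and Cd8b1 each lost their call without docetaxel tumour 2 and without at least 2 other tumours taken singly.

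**Figure D5:**
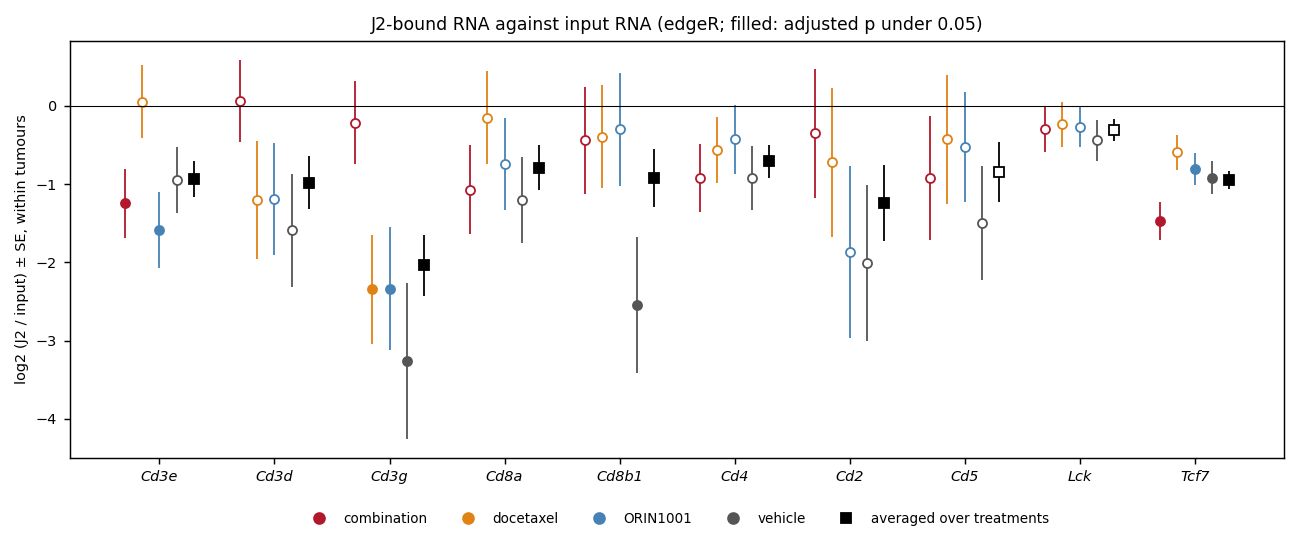
J2 over input on the log2 scale, fitted within tumours (vertical axis), for each marker gene, with bars of 1 SE. Circles are the combination, docetaxel, ORIN1001 and vehicle tumours from left to right, black squares the average over treatments, and filled symbols have an adjusted p under 0.05. All 10 averages lie below 0, from −0.31 for Lck to −2.04 for Cd3g.

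The J2 to input ratio itself was compared between treatments. For the combination over vehicle, 1 of 10 marker genes passed in the edgeR fit, beside 12.7% of all genes in the same direction. This was Cd3g, with a log2 change of 3.05 ± 1.13 (adjusted p = 0.0274). It rests on few counts: 1, 4 and 11 in the combination J2 libraries, 2, 3 and 1 in the docetaxel J2 libraries, 0, 3 and 1 in the ORIN1001 J2 libraries, and 1, 1 and 0 in the vehicle J2 libraries. Summed over tumours, the J2 to input ratio of Cd3g was 0.837 in the combination (exact 95% interval 0.455 to 1.45), 0.224 for docetaxel (0.079 to 0.52), 0.232 for ORIN1001 (0.0605 to 0.637) and 0.0971 for vehicle (0.0115 to 0.368), with intervals for counting error only. The call was lost without any 1 vehicle tumour or without combination tumour 2 or 3, with adjusted p between 0.0622 and 0.109. It was lost as well with no filter on low counts (adjusted p = 0.0698) and without the tumour block (adjusted p = 0.0783). Cd3e had −0.30 ± 0.61 in the same comparison (adjusted p = 0.753), and the median of the 10 was 0.36 against −0.0047 over all genes. For docetaxel over vehicle and for ORIN1001 over vehicle 0 of 10 passed by edgeR, 0 had an unadjusted p under 0.05 and DESeq2 called 0, beside 0% of all genes in each. For the combination over ORIN1001 0 of 10 passed by edgeR, beside 20.9% of all genes, 1 had an unadjusted p under 0.05 and DESeq2 called 0. For the combination over docetaxel 0 of 10 passed by edgeR, beside 30.7% of all genes. An unadjusted p under 0.05 was found for 2 (Cd3g and Tcf7), and DESeq2 called 1. There Tcf7 had −0.88 ± 0.33 (adjusted p = 0.0557), and it passed without docetaxel tumour 3 (−0.89 ± 0.31, adjusted p = 0.0274), as did 21.1% of all genes in the same direction. The count was also 1 without combination tumour 1 or 2.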

How the data were processed

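RNA of 12 tumours was measured as paired input and J2 libraries. The deposited gene table holds raw counts per gene that the authors made; the tools were STAR 2.7.3a, fastp 0.23.2 and featureCounts 2.0.3 and the build mm10, per the submitters' processing notes. Per the labels' protocols the kit was a stranded total RNA kit with ribosomal depletion, and the strand setting of the counting is not given in the sources used here. The deposited table of transposable elements was not used here. Of 53465 rows, 53274 were matched to a symbol. Coordinates and sequences are from RefSeq (GRCm38.p6).

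From these counts, edgeR 4.0.16 (R 4.3.3; TMM, filterByExpr with a minimum count of 10 and minimum total of 15, quasi-likelihood F test, Benjamini-Hochberg adjustment over all genes tested, threshold 0.05, two-sided) was fitted to the 12 inputs with 1 coefficient per treatment, and to the 24 libraries together, where tumours were blocks and each treatment had its own J2 coefficient. SE is the Wald error of that fit. P-values measure the spread between tumours. The tumour block follows the labels, and input and J2 of a tumour deviated together from their group means (correlation 0.116 to 0.832, above 0.1 in 12 of 12). No pair of replicates looked like 1 library deposited again (lowest chi-square per degree of freedom 11.5). Scripts were tested on simulated counts. Alternatives were RLE size factors, DESeq2 1.42.0, limma-voom (limma 3.58.1) with sample weights, no filter on low counts, only the 2 groups compared, replicate number as a block, ribosomal RNA loci removed (62 rows were taken as such), and each tumour left out in turn. Docetaxel tumour 3 together with each other tumour of the remaining treatments was left out after seeing the data.

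The marker genes and 15 companion lists, and the rules for genes to name, were chosen with earlier results of these data known. All 10 members were described, with every sample's value for at least the gene of smallest p in each role and Cd4. In each list up to 4 genes of smallest unadjusted p for the combination over vehicle were named. Runx3, Ncr1, Sdc1, Tcf4, Bst2, genes called only without docetaxel tumour 3, genes at 0 and those named for J2 in the closing section were added after their values were seen. The levels of Cadm1, Tlr3, Irf8, Xcr1 and Batf3 were added in the same way. Some genes that these rules name, and that the counts include, are not reported here. The 8 most alike genes have the highest Pearson r between log2 CPM (prior count 2) and the mean z-score of the 10 members, among genes of average log2 CPM of at least 0.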

Additional observations from a re-analysis of the deposited data

Results flagged for a closer look

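The change in the J2 to input ratio of Cd3g between combination and vehicle tumours was singled out because the test of the difference itself passed (log2 change 3.05, adjusted p = 0.0274 by edgeR), in the direction of a higher ratio in the combination. The vehicle J2 libraries together held 2 counts of Cd3g and the combination J2 libraries 16. The combination J2 libraries also differed from the vehicle ones in the share of counts at ribosomal RNA loci (22.7% to 56.6% in the combination, 4.08% to 6.02% in vehicle), and the part of that difference in the result was not tested. Over the alternatives run, the adjusted p lay between 0.0199 and 0.109. Groups held 3 tumours each, so no single sample was tested as an outlier.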

How the results depend on the processing

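In counts of called marker genes, the combination over vehicle had 0 of 10 in the edgeR fit, against 2 by DESeq2, 7 by limma-voom with sample weights and 3 when only the 2 groups were fitted, and 0 to 5 when libraries were left out (1 tumour, or docetaxel tumour 3 with 1 other). The same ranges were 0 to 7 for the combination over docetaxel, 0 to 8 over ORIN1001, 0 to 2 for the interaction and 0 to 8 for any treatment. Limma-voom called 8 over docetaxel, 8 over ORIN1001, 6 for the interaction and 8 for any treatment, DESeq2 called 3 for the interaction, and fitting only the 2 groups called 0 over docetaxel. For J2 the ranges were 4 to 9 averaged over treatments, 1 to 2 in the combination, 0 to 2 in docetaxel, 0 to 3 in ORIN1001 and 1 to 5 in vehicle tumours, 0 to 1 for the J2 change of the combination over vehicle and 0 to 1 over docetaxel. No filter on low counts gave 0 for the J2 change over vehicle, and over docetaxel RLE size factors, DESeq2 and no filter gave 1 each. The causes were not tested. The shares of all genes called under most of these settings are not given here, so these counts are descriptions only.

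The labels do not state that replicate numbers pair tumours across treatments. Of 18 input pairs sharing a number, 3 had a correlation over 0.1. No correlation was computed for pairs with different numbers, so these values cannot decide whether the numbers pair tumours. With the replicate block the input counts were 0 for the combination over vehicle and for the interaction, 0 over docetaxel, 2 over ORIN1001 and 0 for any treatment. Without the tumour pairing (no replicate block), the J2 counts were 3 averaged over treatments, 1 in the combination, 0 in docetaxel, 0 in ORIN1001 and 2 in vehicle tumours, and 0 for the J2 change over vehicle.

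Signs turned for 3 small values, none of which had passed its test. Leaving out libraries took Tcf7 in the combination over docetaxel through −0.18 to 0.66, with −0.13 without docetaxel tumour 1, −0.10 without combination tumour 1 and −0.03 without docetaxel tumour 3 and combination tumour 3. It took Cd3g for J2 over input in the combination through −0.68 to 0.12, with 0.0048 without combination tumour 3, and the J2 change of Cd3e over vehicle through −0.64 to 0.24. Of the single-gene values named, 1483 kept their direction and side of the threshold, 94 passed newly, 96 no longer passed and 7 turned.

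Levels of different genes were not compared, since exon lengths were not on hand and the planned order per length was not run. At 2.54 M counts in the shallowest combination J2 library, 0 to 6 counts stood for each marker gene other than Lck and Tcf7, so small J2 differences were not detectable there. Intervals cover counting error only, since reads without molecular identifiers are not independent molecules.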

Other observations

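Outside the comparisons above, T cell receptor constant genes could be read in J2 RNA. Averaged over treatments, Trac and Trbc2 were lower in J2 than in input, 2 of 4 chains tested, and the median of the chains was −0.90 on the log2 scale against −0.05 over all genes. Of the cytotoxic genes 4 of 5 tested were lower in J2 (Ccl5, Gzma, Gzmb and Prf1), at a median of −1.93. Of the macrophage genes 7 of 9 were lower at a median of −1.06, and of the epithelial genes 7 of 9 at a median of −0.88, beside 30.0% of all genes. Of the T cell lineage factors 3 of 13 were higher and 3 lower in J2, beside 25.0% of all genes that were higher and 30.0% that were lower.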
